A study of Mus musculus with 6 samples.

Results

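The genes described here are the matrix metalloproteinases (Mmp), their tissue inhibitors (Timp), the ADAMTS proteases (Adamts) and the ADAMTS-like proteins (Adamtsl), measured in mouse hearts. They were taken by symbol as every row of the count table named Mmp, Timp, Adamts or Adamtsl followed by digits, with letter suffixes allowed. That gave 51 of the 46095 genes listed, namely 23 Mmp, 4 Timp, 19 Adamts and 5 Adamtsl genes. Total RNA was sequenced from 3 hearts of STAT3cKO mice, in which Stat3 is deleted in cardiomyocytes only, and from 3 wild-type hearts. The series asked which pathways that bear on heart function differ between them. Genotype is the single factor labelled, and the labels name no Cre driver, strain, age or sex, and they do not say whether each heart sample is a separate animal. If they are not, the spread behind the p-values may be technical. Hearts are named by the number in their title, 1, 3 and 4 for wild type and 3, 6 and 91 for STAT3cKO.

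Cardiac extracellular matrix is laid down mainly by fibroblasts and is cut by zinc-dependent proteases. MMPs are made as inactive proenzymes, either secreted or held at the cell surface, and are blocked by TIMPs, which fill the active site. ADAMTS enzymes are secreted and carry thrombospondin repeats that bind matrix. They trim proteoglycans, procollagens and other matrix proteins. ADAMTS-like proteins share those repeats but have no protease domain, and several of them bind fibrillin microfibrils. Turnover by these families is known to matter in cardiac hypertrophy, infarct healing and valve formation.

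Libraries held 15416877 to 18264052 counts. Values below are counts per 1000000 counts (CPM) after TMM scaling, and fold changes are log2 of STAT3cKO over wild type, with a standard error (SE). A gene is described as higher, lower or changed where edgeR's quasi-likelihood test gave a Benjamini-Hochberg adjusted p under 0.05 over all 14484 genes tested. Stat3 stood at 99.7, 85.8 and 97.5 CPM in wild type and 52.9, 63.7 and 59.6 CPM in STAT3cKO, without overlap (log2 fold change -0.68 ± 0.10, edgeR adjusted p = 0.000677). Of the cell type marker lists used below, the cardiomyocyte list had the largest sum in every library, at 48200 to 64100 CPM for 10 markers. Wild type replicate 4 held lung transcripts (5 markers summing to 19.5 CPM, against 0.0 to 0.205 CPM in the other hearts), and wild type replicate 3 held the most from cartilage markers (5.67 CPM for 7 markers, against 0.824 to 1.91 CPM). Every call below was therefore repeated without each heart in turn.

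Of the 51 genes, 37 had enough counts to be tested. In STAT3cKO hearts 3 of them were higher (8.11%; 13.2% of all genes tested) and 13 were lower (35.1%; 12.6% of all genes tested). Together 16 passed (25.8% of all genes tested), and the remaining 21 did not. The 3 higher genes were Mmp3, Adamts10 and Adamtsl5. The 13 lower genes were Mmp13, Mmp15, Mmp17, Mmp28, Timp3, Adamts4, Adamts5, Adamts8, Adamts12, Adamts15, Adamts19, Adamtsl1 and Adamtsl3. The median log2 fold change of the 37 was -0.39, against 0.00 for all genes tested. CPM values did not overlap between the groups for 5 genes in the higher direction (21.5% of all genes tested) and 14 in the lower direction (21.5% of all genes tested).

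**Figure D1:**
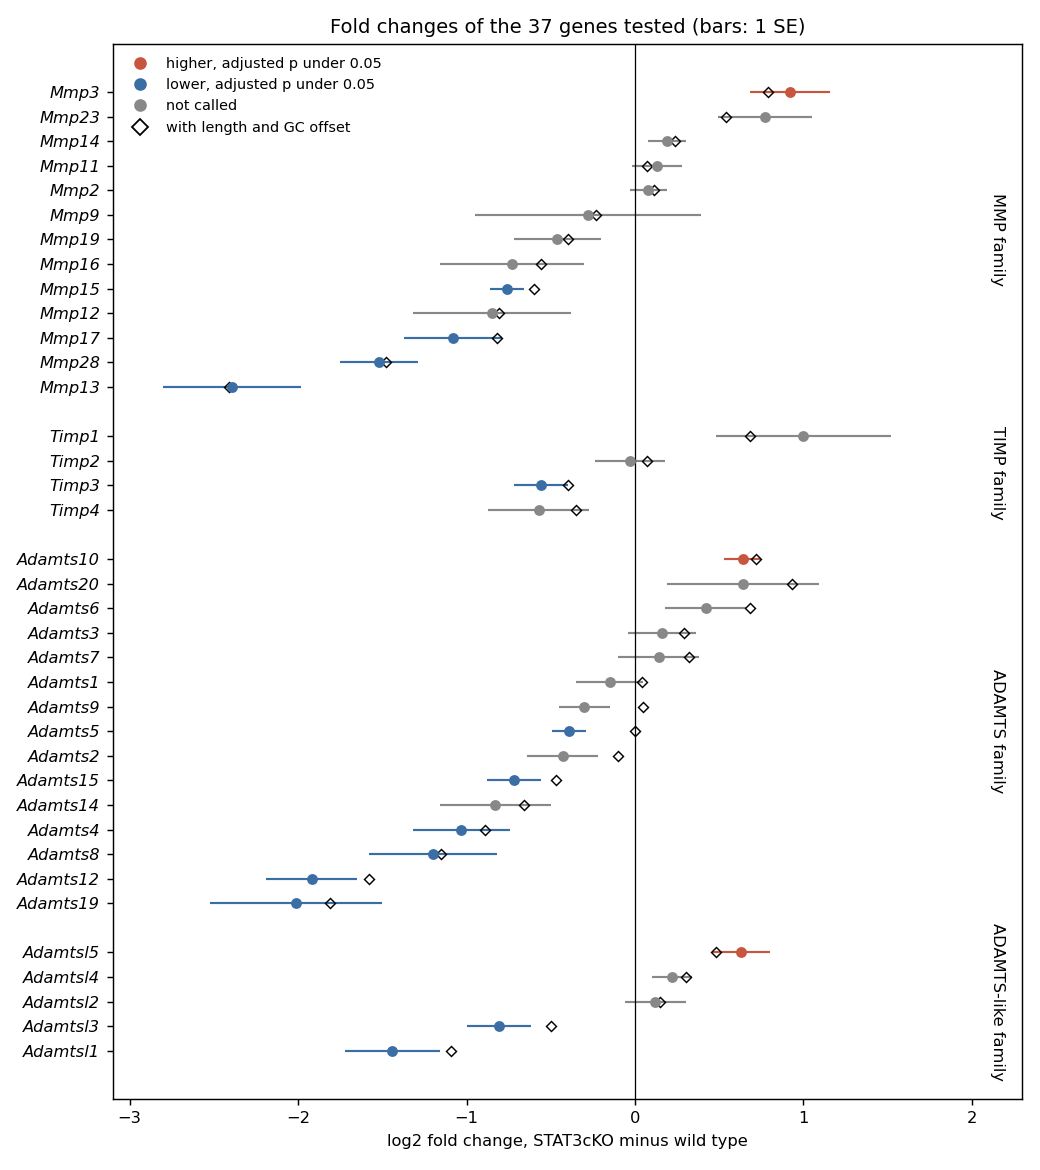
Log2 fold change (STAT3cKO minus wild type, x axis) of each of the 37 genes tested, by family, with bars of 1 SE. Filled circles are the edgeR fit, coloured by whether the gene was called, and open diamonds are the fit with a length and GC offset. The values run from -2.39 (Mmp13) to 1.0 (Timp1, not called).

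Transcript length moved with the fold changes. Across all genes tested, longer transcripts had lower fold changes (Spearman's rho -0.463 across genes, which are not independent replicates), and the 37 genes have a median length of 4389 nt against 3068 nt for all. With each heart's trend on length and GC content entered as an offset, 2 of the 37 were higher and 7 lower (10.4% and 7.47% of all genes tested with the same offset), with a median of -0.10. The 9 that passed both fits were Mmp3 and Adamts10, higher, and Mmp13, Mmp15, Mmp28, Adamts12, Adamts15, Adamts19 and Adamtsl1, lower. Of the 16 calls, 8 also held in each fit that left out 1 heart. They were Adamts10, higher, and Mmp13, Mmp15, Mmp28, Adamts12, Adamts15, Adamtsl1 and Adamtsl3, lower. The number lower was 8 without wild type replicate 3. The number higher was 1 without wild type replicate 1 or 4. Among the 13 lower genes, Mmp13 and Adamts19 were under the filter's level in all 3 STAT3cKO hearts and Adamts8 in 2 of them, so they entered the test through their wild-type values. Adamts20, not called, reached that level in only 1 wild-type heart and entered through its STAT3cKO values. Counts and medians over the genes tested, and the counts without overlap, include these genes and are descriptions.

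Compared per transcript length, Timp3 was the most abundant of these transcripts. In wild type, Timp3 stood at 64.5 CPM per kb of its longest transcript, Adamtsl5 at 36.4, Timp2 at 32.6, Mmp2 at 24.0 and Mmp15 at 19.5. Adamts10, at 9.53 CPM per kb, led the ADAMTS proteases, followed by Adamts1 at 7.90 and Adamts7 at 5.38. The summed MMP level was 69.4, 75.5 and 65.5 CPM per kb in wild type, against 64.0, 67.8 and 77.0 CPM per kb in STAT3cKO, so the groups overlapped. The make-up of that sum is given as a description. Mmp2 gave 33.9 to 34.4% of it in wild type and 34.3 to 37.3% in STAT3cKO, while Mmp15 gave 24.1 to 30.1% in wild type and 13 to 20.2% in STAT3cKO.

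**Figure D2:**
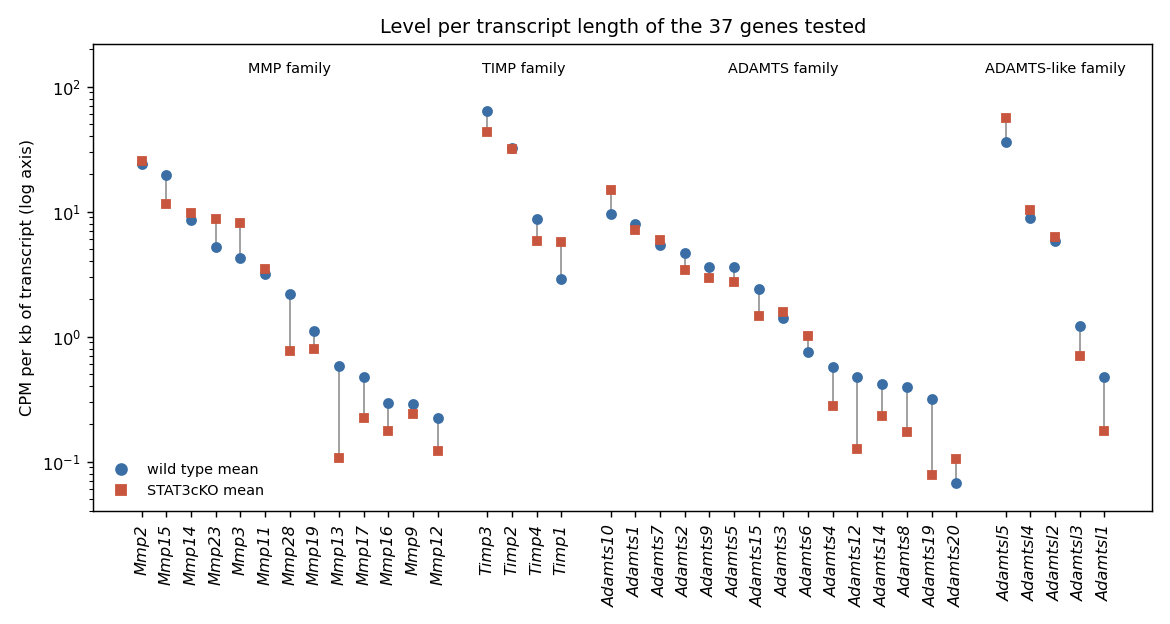
Mean level of each of the 37 genes tested in CPM per kb of the longest GENCODE transcript (log y axis), wild type as circles and STAT3cKO as squares, ordered by wild-type level within a family. Timp3, Adamtsl5, Timp2, Mmp2 and Mmp15 lead in wild type, and the widest gaps are among low transcripts such as Mmp13, Adamts12 and Adamts19.

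Gelatinases degrade denatured collagen and basement membrane collagen. Mmp2, the constitutive gelatinase of fibroblasts, was at 73.0, 79.9 and 68.3 CPM in wild type and 67.6, 77.8 and 87.9 CPM in STAT3cKO, and the groups overlapped (log2 fold change 0.08 ± 0.11, edgeR adjusted p = 0.623). Mmp9, the gelatinase carried by neutrophils and macrophages, was scarce, at 1.13, 1.07 and 0.549 CPM in wild type and 0.205, 1.75 and 0.328 CPM in STAT3cKO. STAT3cKO replicate 6 held the highest value of all hearts while the other STAT3cKO hearts held the lowest, and the difference was not called (log2 fold change -0.28 ± 0.67, edgeR adjusted p = 0.786). Without that heart it was -1.73 (edgeR adjusted p = 0.0555). Of 10 neutrophil markers 3 were counted well enough to test and 1, S100a8, was higher (13.2% of all genes tested). Their sum was 7.82, 7.46 and 1.97 CPM in wild type and 9.08, 14.3 and 12.2 CPM in STAT3cKO, with Ly6g, a defining marker, at a mean of 0.0172 and 0.00 CPM.

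Collagenases make the first cut in fibrillar collagen. Mmp13, the main interstitial collagenase of rodents (GRCm38 chromosome 9, 7272514 to 7283331), was lower in STAT3cKO. It was under the filter's level in all 3 STAT3cKO hearts and entered the test through wild type alone, so a difference in this direction was a condition of its being tested. It was at 1.44, 1.43 and 1.76 CPM in wild type and 0.273, 0.260 and 0.328 CPM in STAT3cKO, which is 28, 24 and 32 reads against 4, 4 and 6. All STAT3cKO hearts lay well below all wild-type hearts. Its log2 fold change was -2.39 ± 0.41 (edgeR adjusted p = 0.00169), and it stayed between -2.50 and -2.29 in the 12 alternative fits that could test it. Cartilage is another known source of Mmp13. Of 7 cartilage markers listed, Matn1 and Matn3 had 0 counts in every heart, and Col9a3 and Col11a2 were tested and not called. Hapln1, Col9a1 and Ucma had 54, 9 and 10 reads in wild type replicate 3, 0 in the other wild-type hearts and 0 to 4 in the STAT3cKO hearts. With wild type replicate 3 left out, the log2 fold change of Mmp13 was -2.44 (edgeR adjusted p = 0.00666), again tested through wild type alone. The part of cartilage in the Mmp13 values was not tested. Mmp8, the neutrophil collagenase, had 17 reads over the 6 hearts, and Mmp1a and Mmp1b had none.

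Stromelysins cut proteoglycans, fibronectin and laminin, and activate other MMPs. Mmp3, stromelysin 1 (chromosome 9, 7445822 to 7455975), was the only MMP called higher. It was at 6.33, 11.3 and 5.60 CPM in wild type and 13.2, 13.6 and 16.7 CPM in STAT3cKO. The groups did not overlap, although wild type replicate 3 came close to the STAT3cKO hearts. Its log2 fold change was 0.92 ± 0.24 (edgeR adjusted p = 0.0208), and leaving out wild type replicate 1, wild type replicate 4 or STAT3cKO replicate 91 ended the call (adjusted p of 0.0754, 0.0606 and 0.0669 in that order). Mmp11, stromelysin 3, was at 6.90 to 7.62 CPM in wild type and 7.14 to 8.32 CPM in STAT3cKO and was not called (log2 fold change 0.13, edgeR adjusted p = 0.565). It shares 155 exonic bases with Chchd10 on the other strand, so its counts are uncertain. Mmp10 and the matrilysin Mmp7 had no reads.

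Mmp3 and Mmp13 lie in a block of 10 Mmp genes on chromosome 9 (7272514 to 7699585). The block moved in no common direction, since Mmp13 was lower, Mmp3 higher and Mmp12 not called. Mmp12, macrophage elastase, was at 0.618, 1.01 and 0.768 CPM in wild type and 0.341, 0.649 and 0.328 CPM in STAT3cKO (log2 fold change -0.85 ± 0.47, edgeR adjusted p = 0.203). The other 7 genes of the block, Mmp1a, Mmp1b, Mmp7, Mmp8, Mmp10, Mmp20 and Mmp27, had too few reads to test. Macrophage markers were lower beside Mmp12, with 5 of 10 lower and 0 higher (12.6% and 13.2% of all genes tested). They summed to 693, 593 and 540 CPM in wild type and 422, 418 and 603 CPM in STAT3cKO, so 1 STAT3cKO heart overlapped wild type. Whether they account for the Mmp12 values was not tested.

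The promoters of this block are shown because 7 of its genes share a match to the AP-1 motif close to a start. These genes were higher, lower, not called or without reads. Windows of 300 bases, 250 before to 50 after each RefSeq start (GRCm38.p6), were found for 36 of the 51 genes, some with more than 1 start, giving 39 windows. The letters TGACTCA, or TGAGTCA on the other strand, stood in 7 of the 39 (17.9%) and in 5.20% of all 32851 promoter windows. All 7 belong to the block on chromosome 9, which has 12 windows. For 5 of the 7, the 100 bases before the start are printed 5′ to 3′ on the gene's strand, with the AP-1 match in capitals. The match begins at base -35 in Mmp13, -46 in Mmp3, -44 in Mmp12, -63 in Mmp10 and Mmp7, -73 in Mmp1a and -93 in Mmp1b. Bases are counted back from the start of the window that holds the match. Mmp12 and Mmp7 each have another window, from a different RefSeq start, with 0 matches. A match describes these letters and not a bound site.
Mmp13, lower, chr9:7272414-7272513, plus strand: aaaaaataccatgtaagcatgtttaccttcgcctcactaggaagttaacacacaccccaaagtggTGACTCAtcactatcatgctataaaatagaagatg
Mmp3, higher, chr9:7445722-7445821, plus strand: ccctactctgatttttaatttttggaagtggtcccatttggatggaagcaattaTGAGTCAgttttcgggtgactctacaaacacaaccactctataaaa
Mmp12, not called, chr9:7347274-7347373, plus strand: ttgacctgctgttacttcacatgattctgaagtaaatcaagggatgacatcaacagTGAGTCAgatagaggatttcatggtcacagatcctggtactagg
Mmp10, no reads, chr9:7502242-7502341, plus strand: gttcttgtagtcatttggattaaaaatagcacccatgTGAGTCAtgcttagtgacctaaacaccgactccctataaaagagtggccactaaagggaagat
Mmp1a, no reads, chr9:7464041-7464140, plus strand: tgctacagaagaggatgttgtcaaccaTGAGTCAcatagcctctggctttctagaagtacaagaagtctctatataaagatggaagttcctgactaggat

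The STAT motif was searched in the same windows as TTCNNNGAA, which reads the same on both strands and includes the stricter TTCCNGGAA. Of the 36 genes only Mmp23 held either form, in both of its overlapping windows, against 8.30% of all windows with the shorter form and 1.15% with the stricter one. Its 30 bases are shown because they hold the only match to the deleted factor's motif among the 36 genes with a window. The changed genes Adamts4, Adamts5, Adamts8, Adamts10, Adamts15, Adamts19, Adamtsl1 and Mmp17 had no window, so no motif was searched there. The capitals mark TTCCTGGAA, which begins at base -98 of 1 RefSeq start and at base -4 of the other.
Mmp23, not called, chr4:155653361-155653390, minus strand: ggTTCCTGGAAtcgcaccgggggatgcgga
Mmp23, an MMP held in the membrane by its N-terminal part, was at 7.31, 9.78 and 5.21 CPM in wild type and 10.8, 9.54 and 17.5 CPM in STAT3cKO. STAT3cKO replicate 6 fell within the wild-type range, and the difference was not called (log2 fold change 0.77 ± 0.28, edgeR adjusted p = 0.0748). DESeq2's Wald test did call it (adjusted p = 0.0154), as did limma-voom (adjusted p = 0.0485). It was also called by edgeR once wild type replicate 3 was left out (adjusted p = 0.0342), and likewise for STAT3cKO replicate 6 (0.0477). Its adjusted p was 0.171 with the length and GC offset.

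Membrane-anchored MMPs act at the cell surface, where they activate other MMPs and shed receptors. Of 7 such genes 5 were tested, and 2 were lower (12.6% of all genes tested). With the length and GC offset 1 of the 5 was lower (7.47% of all genes tested). Mmp15, a transmembrane MMP (chromosome 8, 95352268 to 95375080), was the most abundant of the 13 lower genes after Timp3. It was at 106, 93.2 and 101 CPM in wild type and 66.4, 60.5 and 51.2 CPM in STAT3cKO, a clear gap. Its log2 fold change was -0.76 ± 0.10 (edgeR adjusted p = 0.000551), and the call held in all 13 alternative fits. Mmp17, which is anchored by a lipid tail (GPI), was at 3.4, 3.28 and 2.47 CPM in wild type and 1.84, 1.10 and 1.37 CPM in STAT3cKO. These groups did not overlap either (log2 fold change -1.08 ± 0.29, edgeR adjusted p = 0.0171). Mmp17 was not called when wild type replicate 1 (adjusted p = 0.0624) or 3 (0.0546) was left out, nor with the length and GC offset (0.0675).

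Mmp14, the main activator of pro-MMP2 and the third of the abundant MMPs, was not called. It was at 25, 30.4 and 28.2 CPM in wild type and 28.7, 32.9 and 33.5 CPM in STAT3cKO, with overlap between groups (log2 fold change 0.19 ± 0.11, edgeR adjusted p = 0.232). Mmp16 was at 0.878 to 2.03 CPM in wild type and 0.478 to 1.09 CPM in STAT3cKO (log2 fold change -0.73, edgeR adjusted p = 0.228). Mmp24 and Mmp25 had 9 and 27 reads in all and were not tested.

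Among other secreted MMPs, Mmp28, or epilysin (chromosome 11, 83440768 to 83463071), was lower. It was at 8.03, 7.81 and 6.86 CPM in wild type and 1.77, 2.92 and 3.18 CPM in STAT3cKO, so that every STAT3cKO heart held less than the lowest wild-type heart. The log2 fold change was -1.52 ± 0.23 (edgeR adjusted p = 0.000826), with -1.48 under the length and GC offset. Its exons share 466 bases with 1700020L24Rik on the other strand, a gene at 0.219 CPM or less in every heart. Mmp19 was at 3.02 to 4.17 CPM in wild type and 1.91 to 3.39 CPM in STAT3cKO and was not called (log2 fold change -0.46, edgeR adjusted p = 0.217). It shares 789 exonic bases (22.3%) with Tmem198b on the other strand, so its counts are uncertain. Mmp20, the enamel protease, had no reads and Mmp21 had 1.

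The STAT3cKO hearts were lower in Timp3 and showed no call in the other 3 inhibitors. Timp3, the inhibitor that binds matrix and also blocks ADAMTS proteases and ADAM17 (chromosome 10, 86300372 to 86349506), was at 269, 387 and 258 CPM in wild type. In STAT3cKO it was at 178, 235 and 207 CPM, below all wild-type hearts by a narrow margin (log2 fold change -0.56 ± 0.16, edgeR adjusted p = 0.0300). Leaving out wild type replicate 3 ended the call (adjusted p = 0.0781). So did leaving out replicate 3 or 91 of the STAT3cKO hearts (0.0989 and 0.116) and the length and GC offset (0.103). Timp4, the inhibitor most restricted to heart and vessels, was at 66.7, 44.5 and 31.7 CPM in wild type and 25.2, 36.2 and 34.9 CPM in STAT3cKO, with overlap (log2 fold change -0.57 ± 0.30, edgeR adjusted p = 0.225). Leaving out wild type replicate 4, the heart with lung transcripts, gave a Timp4 call (log2 fold change -0.79, adjusted p = 0.0370).

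Timp2, which pairs with MMP14 to activate pro-MMP2, was at 121, 146 and 95.2 CPM in wild type and 101, 102 and 152 CPM in STAT3cKO (log2 fold change -0.03 ± 0.21, edgeR adjusted p = 0.932). Timp1, the inducible inhibitor and a known target of IL-6 family cytokines, was at 2.88, 2.57 and 2.25 CPM in wild type and 2.32, 3.25 and 9.69 CPM in STAT3cKO. A single heart, STAT3cKO replicate 91, stood apart. The log2 fold change of 1.0 ± 0.52 was not called (edgeR adjusted p = 0.200) and was 0.13 without that heart. Timp1, Timp3 and Timp4 each lie within a synapsin gene on the other strand, and Timp3 shares 21.3% of its exonic bases with its host. The hosts were low, with Syn1 at 0.614 CPM or less, Syn3 at 1.65 or less and Syn2 at 2.91 to 4.48.

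Summed per transcript length, the TIMP level was 105, 132 and 88.6 CPM per kb in wild type, against 72.3, 87.5 and 102 CPM per kb in STAT3cKO, with overlap. The ratio of the TIMP sum to the MMP sum was 1.51, 1.75 and 1.35 in wild type, against 1.13, 1.29 and 1.32 in STAT3cKO. The highest STAT3cKO heart and the lowest wild-type heart were nearly level. The ratio is given as a description, and Timp3 makes up 54.3 to 61.9% of the TIMP sum in wild type and 42.9 to 56.9% in STAT3cKO.

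**Figure D3:**
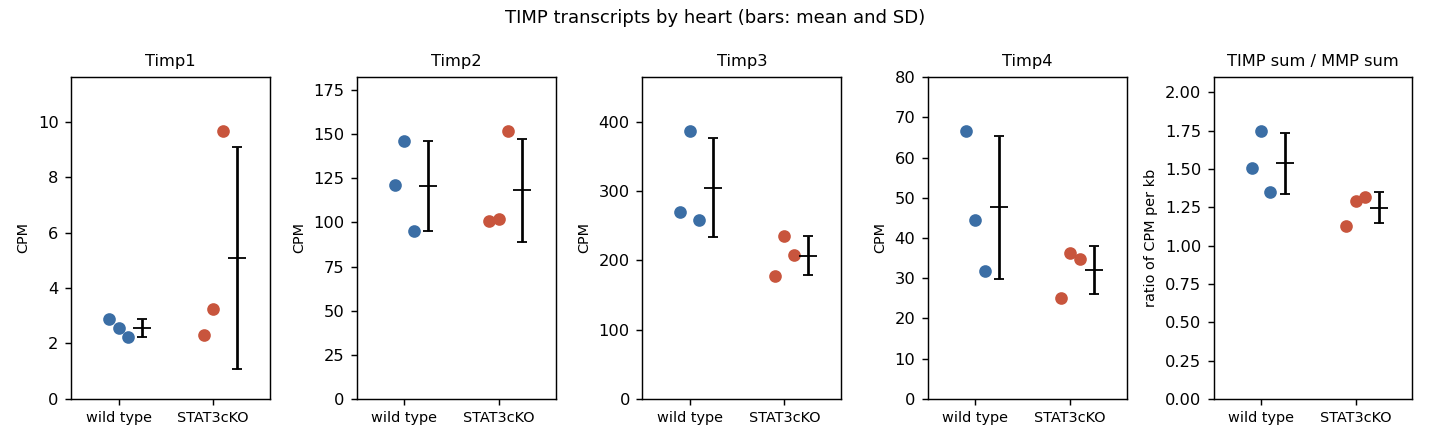
CPM of Timp1 to Timp4 and the ratio of the summed TIMP to the summed MMP level (CPM per kb) in each heart, wild type left and STAT3cKO right in every panel, with the mean and SD of 3 hearts beside the points. Timp3 separates the groups (178 to 235 CPM against 258 to 387 CPM), and 1 STAT3cKO heart at 9.69 CPM sets the Timp1 mean.

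ADAMTS proteases that cut versican and related proteoglycans were lower in 4 of 7 cases and higher in 0 (12.6% and 13.2% of all genes tested). With the length and GC offset 1 of the 7, Adamts15, was lower (7.47% of all genes tested). Adamts5 (chromosome 16, 85856173 to 85901828), a main versican-cleaving enzyme, was at 40.8, 36.1 and 38.9 CPM in wild type and 28.0, 28.4 and 31.7 CPM in STAT3cKO. Its groups were well separated (log2 fold change -0.39 ± 0.10, edgeR adjusted p = 0.0130). However, its longest transcript has 10791 nt, and the length and GC offset brought the log2 fold change to 0.00 (adjusted p = 0.994). Without STAT3cKO replicate 3 the adjusted p was 0.0536. Adamts15 (chromosome 9, 30899155 to 30922452) was at 12.5, 17.5 and 13 CPM in wild type and 8.87, 9.09 and 8.05 CPM in STAT3cKO (log2 fold change -0.72 ± 0.16, edgeR adjusted p = 0.00554). The Adamts15 call held with the offset (adjusted p = 0.0452) and without any 1 heart.

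Adamts8, the next ADAMTS gene to Adamts15 on chromosome 9 (30942562 to 30963838), was also lower, at 1.39, 1.79 and 1.15 CPM in wild type and 0.751, 0.584 and 0.547 CPM in STAT3cKO. It reached the filter's level in only 1 STAT3cKO heart and entered the test through its wild-type values. The groups did not overlap (log2 fold change -1.20 ± 0.38, edgeR adjusted p = 0.0349). The call was lost in each of the 6 fits that left out 1 heart (adjusted p from 0.0507 to 0.133), with DESeq2 (0.0779) and with the length and GC offset (0.0508). Adamts4, an aggrecanase, was at 2.06, 2.57 and 2.96 CPM in wild type and 1.02, 1.30 and 1.37 CPM in STAT3cKO, again without overlap (log2 fold change -1.03 ± 0.29, edgeR adjusted p = 0.0228). Leaving out replicate 3 or 4 of wild type (adjusted p of 0.0616 and 0.0907) or STAT3cKO replicate 3 (0.0784) ended its call, as did the offset (0.0542).

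The other 3 proteoglycan-cleaving genes were not called. Adamts1, which lies beside Adamts5 on chromosome 16 and is strong in endothelium, was at 44.7, 32.3 and 38.8 CPM in wild type and 28.5, 46.3 and 29.6 CPM in STAT3cKO (log2 fold change -0.15 ± 0.20, edgeR adjusted p = 0.612). STAT3cKO replicate 6 held the highest value, and without it Adamts1 was called lower (log2 fold change -0.41, adjusted p = 0.0373). Adamts9 was at 24.5 to 31.9 CPM in wild type and 18.9 to 28.4 CPM in STAT3cKO (log2 fold change -0.30, edgeR adjusted p = 0.173), and was called without STAT3cKO replicate 6 (adjusted p = 0.0388) and with library size alone (0.0407). Adamts20 was at 0.329 to 0.597 CPM in wild type and 0.649 to 0.821 CPM in STAT3cKO, without overlap (log2 fold change 0.64, edgeR adjusted p = 0.320). It reached the filter's level in only 1 wild-type heart and entered the test through its STAT3cKO values.

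Of the pair that cuts cartilage oligomeric matrix protein (COMP), Adamts12 was lower and Adamts7 was not called. Adamts12 (chromosome 15, 11064790 to 11349231) was at 4.32, 3.70 and 4.22 CPM in wild type and 0.819, 1.30 and 1.09 CPM in STAT3cKO. Its lowest wild-type heart held well over the highest STAT3cKO heart, and the log2 fold change was -1.92 ± 0.27 (edgeR adjusted p = 0.000619). It passed in all 12 alternative fits that could test it, between -2.07 and -1.58. Adamts7, at 29.4, 30.1 and 27.4 CPM in wild type, was at 34.4, 41.4 and 20.1 CPM in STAT3cKO, on both sides of the wild-type values (log2 fold change 0.14 ± 0.24, edgeR adjusted p = 0.704). STAT3cKO replicate 91 was the low heart, and without it Adamts7 was called higher (log2 fold change 0.39, adjusted p = 0.0314). It shares 122 exonic bases with Tbc1d2b on the other strand, which was lower (log2 fold change -0.54, edgeR adjusted p = 0.00354), so its counts are uncertain.

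The 3 procollagen N-proteinases, which trim fibrillar procollagens before fibril assembly, were not called. Adamts2, the main one, was at 32.3, 41.3 and 27.6 CPM in wild type and 19.8, 22.1 and 32.8 CPM in STAT3cKO (log2 fold change -0.43 ± 0.21, edgeR adjusted p = 0.174). As with Timp1 and Timp2, STAT3cKO replicate 91 was the highest of its group. Without it Adamts2 was called lower (log2 fold change -0.68, adjusted p = 0.0136). Adamts14 was at 1.81 to 2.47 CPM in wild type and 0.819 to 1.64 CPM in STAT3cKO, without overlap (log2 fold change -0.83, edgeR adjusted p = 0.0798). Adamts3, which activates VEGF-C for lymphatic growth, was at 4.43 to 6.47 and 5.47 to 6.95 CPM, with overlap (log2 fold change 0.16, edgeR adjusted p = 0.584).

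Adamts10, which binds fibrillin and is mutated in Weill-Marchesani syndrome, was the only protease of its family called higher. On chromosome 17 (33524204 to 33553782), it was at 39.0, 43.4 and 33.1 CPM in wild type and 62.0, 56.9 and 61.4 CPM in STAT3cKO. All STAT3cKO hearts stood above all wild-type hearts, and the log2 fold change was 0.64 ± 0.11 (edgeR adjusted p = 0.00143). The call held in all 13 alternative fits, between 0.53 and 0.73. Its close relative Adamts6 was at 3.29, 5.73 and 5.70 CPM in wild type and 5.73, 8.31 and 5.58 CPM in STAT3cKO and was not called (log2 fold change 0.42 ± 0.24, edgeR adjusted p = 0.230; 0.68 and 0.0552 with the offset). Adamts10 gave 20.7 to 25% of the summed ADAMTS level per length in wild type and 30.5 to 38.4% in STAT3cKO, while the sum itself overlapped (39.6 to 42.9 and 39.5 to 46.1 CPM per kb).

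Adamts19, known from heart valve development, was low and lower still in STAT3cKO. No STAT3cKO heart reached the filter's level for it, and it entered the test through wild type alone. A difference in this direction was thus a condition of its being tested. It was at 1.08, 2.62 and 1.21 CPM in wild type and 0.409, 0.584 and 0.219 CPM in STAT3cKO (log2 fold change -2.01 ± 0.51, edgeR adjusted p = 0.0122). Wild type replicate 3, the heart with the highest cartilage marker sum, held the most, and without it the call was lost (log2 fold change -1.51, adjusted p = 0.0685). Adamts13, which cleaves von Willebrand factor and is made mainly in liver, had 1 read, Adamts16 none, Adamts18 had 2 and Adamts17 had 47. A count of 0 allows up to 0.164 to 0.195 CPM per heart (3 counts of its total, without TMM scaling), for counting error only.

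**Figure D4:**
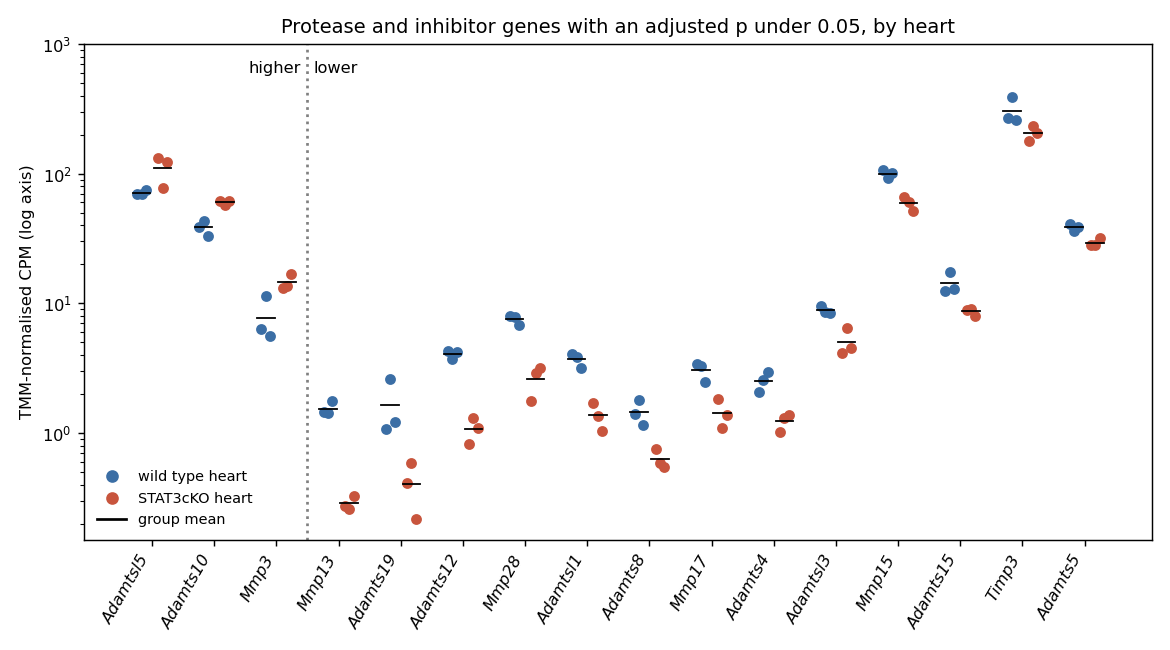
TMM-normalised CPM (log y axis) of the 16 genes with an adjusted p under 0.05 in each heart, wild type in blue and STAT3cKO in red, with group means as bars. The 3 higher genes stand to the left of the dotted line and the 13 lower genes to the right, and for each of the 16 the groups do not overlap.

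ADAMTS-like proteins split. Adamtsl5, which binds fibrillin and heparin (chromosome 10, 80339110 to 80348412), was at 69.3, 69.7 and 74.8 CPM in wild type and 131, 78.2 and 122 CPM in STAT3cKO. STAT3cKO replicate 6 lay just above wild type and the other 2 hearts far above it (log2 fold change 0.63 ± 0.17, edgeR adjusted p = 0.0259). The call did not survive leaving out any heart other than STAT3cKO replicate 6 (adjusted p from 0.0692 to 0.0894), nor library size alone (0.0904) or the offset (0.0509). Adamtsl1 (chromosome 4, 85514172 to 86428385) was at 4.07, 3.88 and 3.18 CPM in wild type and 1.71, 1.36 and 1.04 CPM in STAT3cKO, a wide gap (log2 fold change -1.44 ± 0.28, edgeR adjusted p = 0.00301). It passed in all 12 alternative fits that could test it.

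Adamtsl3 (chromosome 7, 82335694 to 82614450) was at 9.57, 8.59 and 8.39 CPM in wild type and 4.16, 6.43 and 4.54 CPM in STAT3cKO (log2 fold change -0.81 ± 0.19, edgeR adjusted p = 0.00862), and was not called with the offset (adjusted p = 0.0724). Adamtsl2, a fibrillin and latent TGF-beta binding protein partner altered in geleophysic dysplasia, was at 18.4, 25.6 and 19.1 CPM in wild type and 24.8, 17.1 and 26.4 CPM in STAT3cKO, with overlap (log2 fold change 0.12, edgeR adjusted p = 0.662). Adamtsl4, tied to lens fibrillin, was at 35.4, 37.2 and 34.3 CPM in wild type and 37.5, 49.5 and 37.6 CPM in STAT3cKO, without overlap but not called (log2 fold change 0.22, edgeR adjusted p = 0.187).

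Genes around these families were followed through 4 lists, of which 62 of 73 genes were tested. Of them 2 were higher and 24 lower (3.23% and 38.7%, against 13.2% and 12.6% of all genes tested), with a median log2 fold change of -0.37. The offset gave 4 higher and 16 lower (10.4% and 7.47% of all genes tested), and 5 were higher without wild type replicate 3. These lists were not drawn up blind to the data, and their counts are descriptions.

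Among 17 activators, inhibitors and clearance receptors, 6 were lower and 1 higher (12.6% and 13.2% of all genes tested). Furin, the convertase that removes the prodomains of membrane-type MMPs and ADAMTS proteases, was at 78.5, 79.8 and 73.8 CPM in wild type and 62.0, 57.9 and 56.1 CPM in STAT3cKO (log2 fold change -0.40 ± 0.09, edgeR adjusted p = 0.00552). Reck, a membrane inhibitor of several MMPs, went from 14 ± 2.27 to 8.82 ± 1.39 CPM (-0.66 ± 0.16, edgeR adjusted p = 0.0110; 0.0582 without wild type replicate 3). Plau, urokinase, which generates plasmin, went from 6.66 ± 0.802 CPM (SD, n = 3) to 3.53 ± 1.06 CPM (edgeR adjusted p = 0.0145; 0.0580 without wild type replicate 1). Of this list 3 genes were lower when replicate 1 or 3 of wild type, or replicate 3 of STAT3cKO, was left out.

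Of 16 other secreted and cell-surface proteases, 6 were lower and 1 higher (12.6% and 13.2% of all genes tested). Ece1, the endothelin-converting enzyme, was at 114, 112 and 101 CPM in wild type and 59.5, 62.5 and 59.5 CPM in STAT3cKO (log2 fold change -0.85 ± 0.09, edgeR adjusted p = 8.02e-05). Of the tolloid proteases, Bmp1, which removes procollagen C-propeptides, was higher (43.5 ± 2.04 to 59.9 ± 4.03 CPM, edgeR adjusted p = 0.00360). Its relative Tll2 was lower (2.34 ± 0.635 to 0.311 ± 0.329 CPM, edgeR adjusted p = 0.00307). With 3 and 1 reads in STAT3cKO replicates 6 and 91, Tll2 entered the test through its wild-type values. Tll1, named to complete the tolloid genes of the list, was not called (log2 fold change -0.7, edgeR adjusted p = 0.325). Adam10, a sheddase, was lower by a small step (log2 fold change -0.35, edgeR adjusted p = 0.00947; 0.1 with the offset). The number higher was 2 without wild type replicate 1 or 3.

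Substrates were lower in 6 of 15 tested and higher in 0 (12.6% and 13.2% of all genes tested). Nid1 and Nid2, nidogens of the basement membrane, had log2 fold changes of -0.78 and -1.05 (edgeR adjusted p = 0.000983 and 0.000370). Fn1, fibronectin, was at 89.9, 124 and 79.5 CPM in wild type and 40.1, 45.0 and 46.7 CPM in STAT3cKO (-1.16 ± 0.15, edgeR adjusted p = 0.000862). Col1a2, a chain of type I collagen, also fell (log2 fold change -0.72, edgeR adjusted p = 0.00226). Versican (Vcan), the proteoglycan that ADAMTS1, ADAMTS5 and ADAMTS9 cut, was at 30.2 ± 8.93 CPM in wild type, against 21.8 ± 6.79 CPM in STAT3cKO, and was not called (edgeR adjusted p = 0.271). Vcan was chosen for naming after its values were seen.

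Of 14 fibrillin microfibril partners, 6 were lower and 0 higher (12.6% and 13.2% of all genes tested). Fbn1, fibrillin 1, was at 104, 118 and 111 CPM in wild type and 57.3, 70.6 and 79.9 CPM in STAT3cKO (log2 fold change -0.68 ± 0.11, edgeR adjusted p = 0.00149), but was not called with the offset (adjusted p = 0.226). Ltbp1, a latent TGF-beta binding protein, behaved alike (-0.56, edgeR adjusted p = 0.00151; 0.0613 with the offset). Ltbp4, needed for elastic fibres, was lower in both fits (-0.63, edgeR adjusted p = 0.00199; 0.00740 with the offset). So was Papln, papilin, an extracellular protein related in sequence to ADAMTS proteases (-0.94, edgeR adjusted p = 0.000541). With the offset 3 of the 14 were lower and 1 higher, and 1 was also higher without wild type replicate 3 or STAT3cKO replicate 91.

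Marker genes of the cells that make these proteins also differed between the groups. In heart RNA, fewer cells of a type and less RNA per cell cannot be told apart. Of all genes tested 13.2% were higher and 12.6% lower, or 10.4% and 7.47% with the length and GC offset. Cardiomyocyte markers were higher in 4 of 10 tested and lower in 1, summing to 48200 to 52400 CPM in wild type and 57200 to 64100 CPM in STAT3cKO. With that offset 3 of the 10 were higher and 0 lower. Endothelial markers were lower in 6 of 9 tested and higher in 0, summing to 1220 to 1420 CPM in wild type and 852 to 928 CPM in STAT3cKO. Smooth muscle and pericyte markers were lower in 6 of 10 and higher in 0, at 1650 to 1740 CPM and 928 to 1210 CPM, and with the length and GC offset 3 of 10 were lower. That offset left 5 of 9 endothelial markers lower and brought the macrophage markers from 5 to 7 of 10 lower. Mast cell markers were lower in 4 of 5, at 12.1 to 14.7 and 5.80 to 7.47 CPM, and Schwann cell markers in 2 of 4, at 10.8 to 19.1 and 5.80 to 7.98 CPM. Sox10 (4, 7 and 7 reads in STAT3cKO) and Mcpt4 (7, 5 and 9) were under the filter's level in every STAT3cKO heart, and Gfra3 and Cma1 in most of them. These markers entered the test through their wild-type values, so the mast cell and Schwann cell counts are descriptions. Fibroblast markers went both ways, with 2 of 10 lower and 1 higher. Their sum, 915 to 1430 CPM in wild type and 1540 to 2050 CPM in STAT3cKO, is mostly Dcn, which encodes decorin. Among mesothelial markers 1 of 4 was lower, at 23.5 to 29.0 and 11 to 20.7 CPM. The part of these cell types in the changes of the protease and inhibitor genes was not tested.

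**Figure D5:**
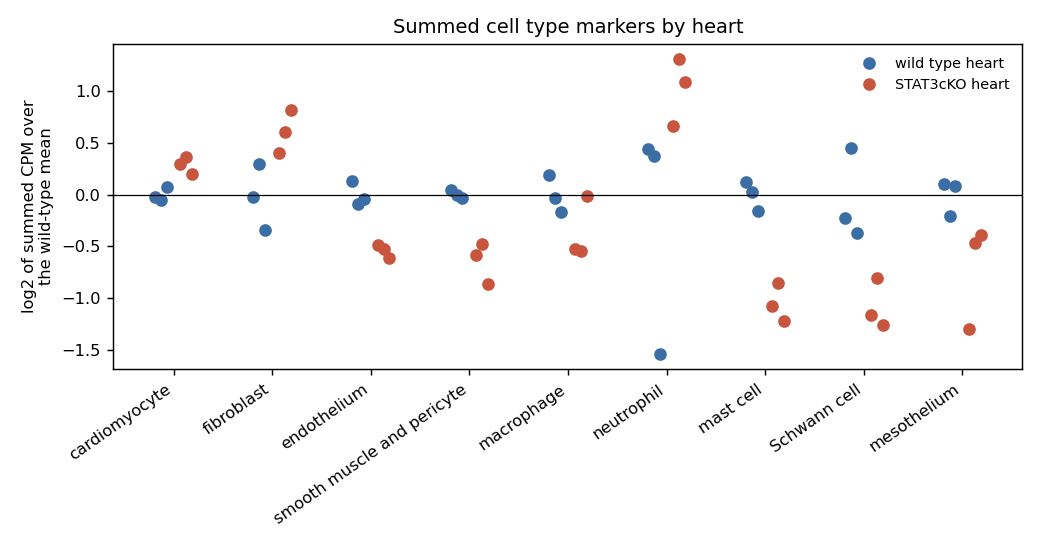
Log2 of the summed CPM of each marker list over its wild-type mean, 1 point per heart, wild type in blue and STAT3cKO in red. The sums for endothelium, smooth muscle and pericyte, mast cell, Schwann cell and mesothelium are lower in all STAT3cKO hearts than in all wild-type hearts, those for cardiomyocyte, fibroblast and neutrophil are higher, and the macrophage sums overlap.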

How the data were processed

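RNA of 6 mouse hearts was sequenced from Trizol extracts with Illumina libraries, per the labels' protocols. The submitters' processing notes name HISAT2 and GRCm38. The authors deposited raw counts per gene, with no normalization. Not given in the sources used here: the counter, its annotation, its strand setting and its handling of multi-mapped reads. Counts of overlapping genes are therefore uncertain.

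Genes were kept by filterByExpr (minimum count 10) of edgeR 4.0.16, scaled by TMM and tested by quasi-likelihood F tests (robust) in R 4.3.3, with genotype as the only term, on all genes together. SEs are the fold change over the square root of F. Levels between genes use CPM per kb of the longest protein-coding GENCODE M21 transcript. Coordinates and overlaps come from the same annotation, and promoter sequences from RefSeq (GRCm38.p6). Alternatives were DESeq2 1.42.0 size factors or Wald test, library size alone, limma-voom (limma 3.58.1), no filter, a stricter filter (1 CPM in 3 hearts and a mean count of 50), a length and GC offset (splines with 5 degrees of freedom per heart) and leaving out each heart. Every one of the 51 genes is named or counted. Values by heart are given for each gene called, the TIMPs and the most abundant genes, and up to 4 genes with the smallest adjusted p are named from each list. Some items are not reported here. The genes, lists and alternatives were chosen with earlier results of these data known.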

Additional observations from a re-analysis of the deposited data

How the results depend on the processing

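The 13 lower genes of the 51 became 6 with the stricter filter, which tested fewer low genes, and 7 with the length and GC offset. They ranged from 8 to 14 when 1 heart was left out. The 3 higher genes became 5 with no filter and 1 to 4 when 1 heart was left out. Of all genes tested, 1918 were higher and 1820 lower. Library size alone gave 1109 higher and 2714 lower (29.0% of calls higher in place of 51.3%) and moved the median log2 fold change from 0.00 to -0.11. The offset gave 1082 lower. Leaving out 1 heart gave 1237 to 1887 higher and 1198 to 1999 lower. The 2 higher genes of the 4 lists became 5 with no filter, 4 with DESeq2, 4 with the offset and 2 to 5 without 1 heart, and the 24 lower became 16 with the offset and 18 to 26 without 1 heart. Adamts5 changed sign only under the offset, at a log2 fold change of 0.00. Of the 16 calls, 7 held in every fit that could test the gene. Where a call was lost, the cause was not tested. Low transcripts such as Mmp13 rest on few reads, so their fold changes are imprecise. No paired analysis was possible because the labels name no pairs.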
